A study of Mus musculus with 2 samples.

Results

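Natural killer (NK) cells were examined in single-cell RNA profiles of mouse pancreatic tumors. They were chosen from the measured values themselves. A cell was taken as an NK cell if at least 2 of the 4 genes Ncr1, Klrb1c, Klre1 and Klra7 were positive and fewer than 2 of the 3 genes Cd3d, Cd3e and Cd3g were. Positive means more than 1 above the gene's zero level, which is the lowest value of that gene in the Ahr fl/fl library. Values are in the scaled units of the deposited table, in which the SD of a gene over all cells was 0.254 to 1.00. The rule found 208 of 9773 cells. They were 101 of 4577 cells of the Ahr cKO library (2.21%, exact Clopper-Pearson 95% interval 1.80% to 2.67%) and 107 of 5196 cells of the Ahr fl/fl library (2.06%, 1.69% to 2.48%). The intervals overlap, and they cover counting error only. The order of the shares turned when the zero level was set from neighbouring cKO cells, with 1.77% of the cKO library.

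The Ahr cKO library came from whole tumors of 3 C57/BL6 mice that carried LysM-Cre beside floxed Ahr alleles. The Ahr fl/fl library came from 3 C57/BL6 mice whose label gives the same floxed alleles and no LysM. All tumors grew in the pancreas from implanted MT4 cells, a KPC pancreatic adenocarcinoma organoid line, and were taken on day 14. The 3 tumors of a group were pooled before live cells were sorted. LysM-Cre is driven from the Lyz2 locus and acts mainly in macrophages, monocytes and neutrophils, so NK cells are not its main target. Lyz2 was positive in 1 of 101 cKO NK cells and in 0 of 107 fl/fl NK cells, against 16.9% of all other fl/fl cells. A count of 0 allows a share of up to 2.97% among the cKO and 2.80% among the fl/fl NK cells. With 1 library per genotype, no test between genotypes was possible and no difference between them has a replicate check.

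NK cells are innate lymphocytes that kill stressed, infected or transformed cells without a rearranged antigen receptor. Inhibitory receptors that read MHC class I are weighed against activating receptors such as NKG2D (Klrk1) and NKp46 (Ncr1). In mice the Ly49 (Klra), NKG2 (Klrc, Klrd1, Klrk1) and NKR-P1 (Klrb1) receptors are encoded side by side in the natural killer gene complex. Killing uses perforin (Prf1) and granzymes (Gzma, Gzmb) released from granules. Their development depends on T-box factors, among them Eomes, and on Runx and ETS family factors.

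Promoters are shown for 4 genes because they stand for the steps the results turn on: activating receptors that chose the cells (Ncr1, Klrb1c), the granzyme that divided them (Gzma) and a granule gene positive in most of them (Nkg7). All 4 matched an entry of RefSeq (GRCm38.p6), each 300 bases from 250 before to 50 after the listed start, written along the gene's own strand. Capitals mark matches, on either strand, to the Runx core TGTGGT, the ETS core AGGAAG or the T-box site GGTGTG. Ncr1 lies at chr7:4337465-4337764 on the plus strand, from the first of 2 listed starts. Klrb1c lies at chr6:128788592-128788891 on the minus strand, Gzma at chr13:113100932-113101231 on the minus strand and Nkg7 at chr7:43436888-43437187 on the plus strand.
Ncr1: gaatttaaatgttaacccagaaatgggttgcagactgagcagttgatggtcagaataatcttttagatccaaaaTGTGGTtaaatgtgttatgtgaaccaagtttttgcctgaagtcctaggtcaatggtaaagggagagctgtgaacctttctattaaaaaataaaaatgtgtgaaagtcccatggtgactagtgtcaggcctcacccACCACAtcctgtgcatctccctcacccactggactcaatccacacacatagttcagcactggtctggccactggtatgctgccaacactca
Klrb1c: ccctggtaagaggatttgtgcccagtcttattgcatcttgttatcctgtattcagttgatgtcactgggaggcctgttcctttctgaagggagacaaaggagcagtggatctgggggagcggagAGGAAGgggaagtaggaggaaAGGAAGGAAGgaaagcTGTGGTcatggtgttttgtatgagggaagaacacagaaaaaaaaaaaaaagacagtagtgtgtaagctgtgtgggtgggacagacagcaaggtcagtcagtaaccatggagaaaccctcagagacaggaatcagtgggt
Gzma: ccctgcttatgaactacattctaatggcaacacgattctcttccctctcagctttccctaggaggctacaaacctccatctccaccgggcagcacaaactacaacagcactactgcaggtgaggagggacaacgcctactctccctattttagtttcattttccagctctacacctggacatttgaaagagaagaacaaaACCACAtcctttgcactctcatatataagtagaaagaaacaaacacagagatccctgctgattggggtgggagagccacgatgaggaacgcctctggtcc
Nkg7: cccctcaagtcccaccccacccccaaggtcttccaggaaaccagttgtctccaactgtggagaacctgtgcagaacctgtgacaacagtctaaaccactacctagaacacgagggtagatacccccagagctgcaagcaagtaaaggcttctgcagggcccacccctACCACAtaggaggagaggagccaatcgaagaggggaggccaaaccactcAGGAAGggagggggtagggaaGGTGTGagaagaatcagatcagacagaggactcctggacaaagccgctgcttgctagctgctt
The Runx core occurred in each of the 4 windows, with 2 matches in Ncr1 and 1 in each of the others, and in 16.8% of 32851 promoter windows of the same length. The ETS core had 3 matches in Klrb1c, of which the last 2 overlap, and 1 in Nkg7, and it occurred in 35.4% of all windows. The T-box site had 1 match, in Nkg7, and occurred in 19.05% of all windows. These matches describe the letters only.

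Some properties of the libraries touch every value below. In the cKO library a median over genes of 15.3% of cells lay below the fl/fl zero level, and a gene was above that level in a median of 4.95% of cKO NK cells against 0.935% of fl/fl NK cells. A correction that moved the cKO cells toward the fl/fl cells was inferred from these values. No source states it. Differences between genotypes are therefore given both as deposited and with an estimate of this correction removed, and values within the fl/fl library need no such estimate. Counts of molecules were not used here, so depth is unknown. The median number of genes above zero, of 2000, was 123 in fl/fl NK cells, 115 in fl/fl CD3 cells and 108 in all other fl/fl cells. Of 656 cell barcodes that occur in both libraries, 2 belonged to cKO NK cells and 2 to fl/fl NK cells, and 1 barcode was an NK cell in both.

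The values that chose the cells were mostly well inside the limits. Members had 2 positive marker genes in 31 cKO and 47 fl/fl cells, 3 in 52 and 44 cells, and all 4 in 18 and 16 cells. Of the 3 Cd3 genes, none was positive in 92 of 101 cKO cells and in 89 of 107 fl/fl cells, and 1 was positive in the others. The second-highest marker of a cell, which decides its membership, ran from 1.04 over a median of 5.11 to 10.1 in cKO cells and from 1.14 over 5.63 to 10.1 in fl/fl cells. It lay just inside the limit, between 1 and 2, in 17 cKO and 15 fl/fl cells. It lay just outside, between 0.5 and 1, in 10 cKO cells and 1 fl/fl cell. A further 22 cKO and 14 fl/fl cells carried both marker sets and were left out by the rule.

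In the deposited two-dimensional embedding most NK cells formed 1 group beside the CD3 cells, defined here as cells with at least 2 positive Cd3 genes and fewer than 2 positive NK markers. At least 8 of the 15 nearest cells were also NK cells for 90 of 101 cKO NK cells (89.1%) and 87 of 107 fl/fl NK cells (81.3%). CD3 cells made up at least 8 of the 15 nearest for 1 cKO and 4 fl/fl NK cells. Around the NK group lay cells that missed the rule. They were 8 cKO cells, 7 of them with 1 positive marker, and 30 fl/fl cells, 21 of them with 1 positive marker and 9 with none.

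**Figure D1:**
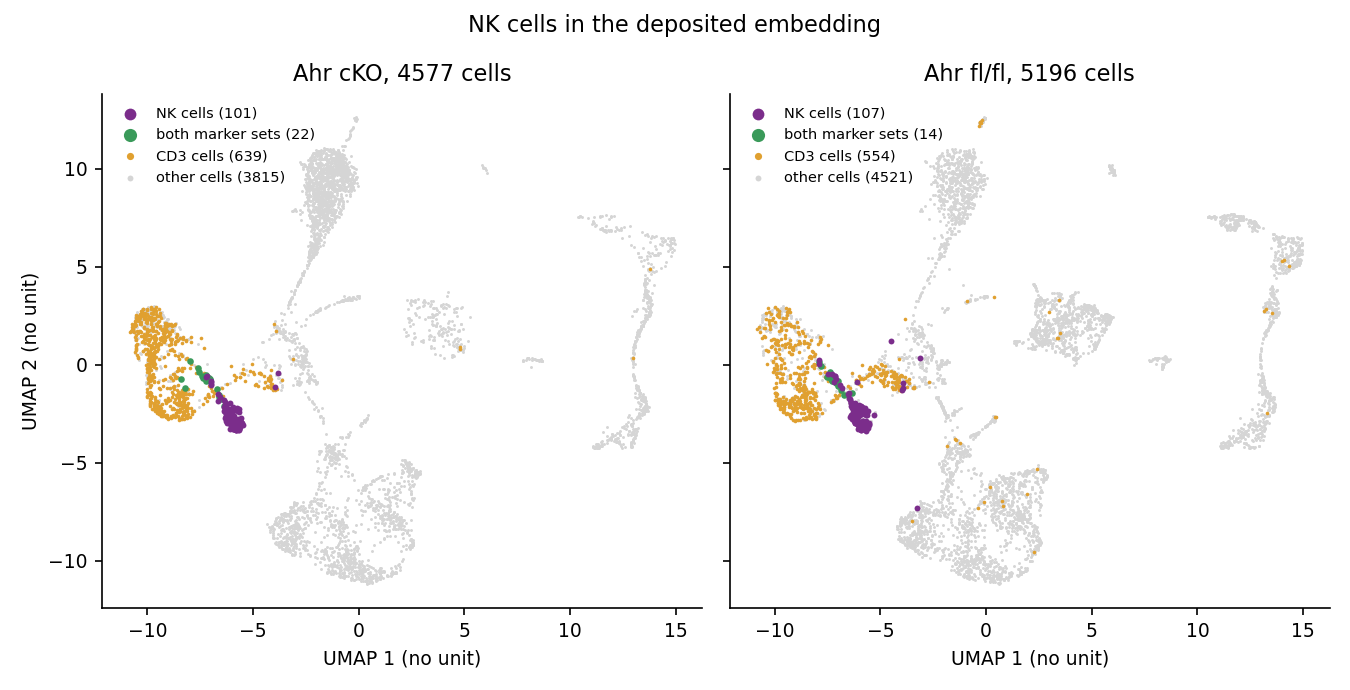
Deposited UMAP coordinates (no unit) of the Ahr cKO cells (left) and the Ahr fl/fl cells (right), with each cell a point coloured by the marker rule. Most of the 101 cKO and 107 fl/fl NK cells gather in 1 group next to the 639 and 554 CD3 cells, and some lie apart from it.

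Receptor genes dominated the list of genes highest in these cells. The members were chosen from these same cells, so the following differences describe them and support nothing. By the mean of NK cells minus the mean of all other cells of the library, the 4 genes of the rule had differences of 3.94 (cKO) and 4.08 (fl/fl) for Ncr1, 5.08 and 3.59 for Klrb1c, 4.07 and 4.48 for Klre1, and 2.68 and 3.43 for Klra7. Among genes outside the rule, the difference was 4.63 (cKO) and 3.62 (fl/fl) for Gzma, 4.13 and 3.47 for Klrk1, 3.29 and 3.00 for Klrb1f, and 3.30 and 2.82 for Il2rb, the interleukin-2 and interleukin-15 receptor beta chain. Of the 30 highest genes, 26 were shared by the libraries, and 12 of the fl/fl 30 were Klr genes that the rule had not used. MHC class II genes lay at the other end, with H2-Aa at -0.71 in the cKO and -0.58 in the fl/fl library.

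Shares of positive cells in NK and CD3 cells are set side by side next. For the genes of the rule the gap was fixed by the choice of cells, as for Ncr1, which was positive in 74.3% of cKO and 71.0% of fl/fl NK cells, against 0% and 0.181% of CD3 cells. Its median height above zero was 3.71 in cKO NK cells (quartiles 0.83 and 6.66) and 3.19 in fl/fl NK cells (quartiles 0 and 7.02). Klrk1, which encodes the activating receptor NKG2D, was positive in 84.2% of cKO and 74.8% of fl/fl NK cells, against 5.32% and 9.21% of CD3 cells. Klrd1, the CD94 partner of NKG2 chains, was less restricted, with 87.1% of cKO and 70.1% of fl/fl NK cells but also 23.8% and 34.8% of CD3 cells. Klrc2, which encodes NKG2C, was positive in 59.4% of cKO and 56.1% of fl/fl NK cells and in 9.93% of fl/fl CD3 cells. Klrg1, an inhibitory receptor that binds cadherins, was positive in 25.7% of cKO and 17.8% of fl/fl NK cells. Nkg7, a granule gene, was frequent in T cells too, with 91.1% of cKO and 84.1% of fl/fl NK cells and 45.4% and 55.4% of CD3 cells.

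Genes of the T cell list had lower means than in CD3 cells but were not all absent. Cd8a was positive in 0 of 101 cKO and 1 of 107 fl/fl NK cells, against 39.7% of fl/fl CD3 cells, and Cd4 and Pdcd1 were positive in none of the NK cells. Trac, the T cell receptor alpha constant gene, was positive in 1.98% of cKO and 7.48% of fl/fl NK cells, and Trbc2 in 9.90% and 18.7%, against 63.0% and 69.0% of fl/fl CD3 cells. Trbc1 was positive in 18.8% of cKO and 23.4% of fl/fl NK cells, against 45.7% and 41.0% of CD3 cells. It was above zero in 59.8% of fl/fl NK cells and 56.1% of fl/fl CD3 cells, so its height differed more than its detection. Trdc, the delta constant gene, was positive in 11.9% of cKO and 21.5% of fl/fl NK cells. That was above its 4.38% of cKO and 4.15% of fl/fl CD3 cells. All 14 measured genes of the T cell list were lower in NK than in CD3 cells by at least 0.2 in both libraries, 3 of them being genes of the rule. The CD3 cells were chosen by Cd3 genes. The share of all genes lower by this much was not counted, so no more is read from the 14. At least 2 genes of that list were positive in 18 cKO and 21 fl/fl NK cells. The median summed height of the list was 1.26 in cKO and 1.28 in fl/fl NK cells, and its 95th percentile was 6.44 and 9.47.

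Apart from the T cell list, few NK cells carried several genes of another lineage, though some single genes were frequent. Itgax of the dendritic cell list was positive in 30.7% of cKO and 29.9% of fl/fl NK cells. Of the macrophage and monocyte list, Ccr2 was positive in 26.7% and 32.7%, and Ly6c2 in 21.8% and 24.3%. At least 2 genes of the macrophage and monocyte list were positive in 4 cKO and 8 fl/fl NK cells, of the dendritic cell list in 0 and 6, and of the B-lineage list in 0 and 1. No NK cell had at least 2 positive genes of the neutrophil, tumor epithelial or erythroid list. All 5 measured fibroblast genes were at zero in every fl/fl NK cell. Hbb-bs, a hemoglobin gene, was above zero in 60.7% of fl/fl NK cells but positive in none.

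The median summed height of the macrophage and monocyte list was 0.943 in cKO and 1.20 in fl/fl NK cells, against 0.574 and 1.22 in all other cells, and its 95th percentile was 4.38 and 5.74 against 16.7 and 16.6. Its part in the results was not tested.

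**Figure D2:**
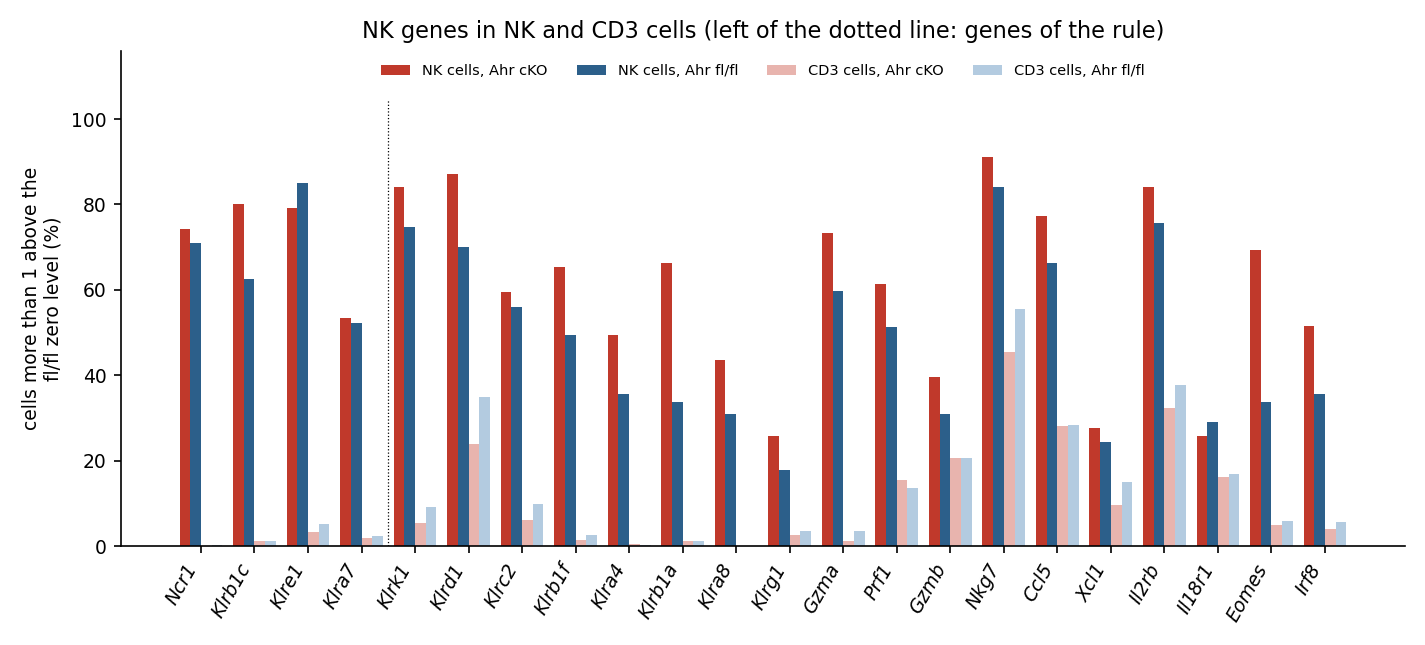
Percent of cells (vertical axis) in which each gene (horizontal axis) was more than 1 above the fl/fl zero level, for NK and CD3 cells of the Ahr cKO and Ahr fl/fl libraries, with the 4 genes of the rule left of the dotted line. Klrk1 reached 84.2% and 74.8% of NK cells and 5.32% and 9.21% of CD3 cells, while Nkg7 also reached 45.4% and 55.4% of CD3 cells.

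Most of the Klr receptor genes lie in 1 stretch of the genome. All 19 measured Klr genes lie on chromosome 6, and the 18 other than Klrg1 fall between positions 128609227 and 130386874 (GRCm38, GENCODE vM21), the natural killer gene complex. The table held 23 genes of that interval. Of these, 18 were at least 0.2 higher in NK cells than in all other fl/fl cells, against 112 of all 2000 genes. The 18 include the 3 Klr genes of the rule, Klrb1c, Klre1 and Klra7. Since genes of this interval chose the cells, the count describes them and supports nothing. Against CD3 cells, which by definition had fewer than 2 positive NK markers, 18 of the 19 Klr genes were at least 0.2 higher in both libraries. These included the 3 Klr genes of the rule. Klra5 was the exception, lower by at least 0.2 in the cKO library and within 0.2 in the fl/fl library. The share of all genes higher by this much was not counted, so no more is read from it. Klri2, the partner of Klre1 in a receptor pair, was positive in 30.7% of cKO and 32.7% of fl/fl NK cells and in 2.17% of fl/fl CD3 cells.

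The Ly49 genes were present in part of the cells each, as is known for this family, whose members are switched on in overlapping subsets of NK cells. Klra4 (Ly49D, activating) was positive in 50 of 101 cKO and 38 of 107 fl/fl NK cells, and Klra8 (Ly49H, activating, the receptor for a cytomegalovirus protein) in 44 and 33. Klra9 (Ly49I, inhibitory) was positive in 36 cKO and 33 fl/fl cells, Klra3 (Ly49C, inhibitory) in 31 and 23, and Klra1 (Ly49A, inhibitory) in 41 and 23. Klra6 and Klra5 were rare, with 7 and 3 cKO cells and 6 and 2 fl/fl cells. Klra7 (Ly49G), which the rule used, was positive in 54 cKO and 56 fl/fl cells.

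Of the 7 Ly49 genes other than Klra7, a cell had a mean of 2.10 positive in the cKO library and 1.48 in the fl/fl library. No cKO cell had more than 5 and no fl/fl cell more than 4. None was positive in 7 cKO and 26 fl/fl cells, and at least 2 were positive in 65 (64.4%) and 51 (47.7%). The deposited shares moved with the correction. For Klra1 the positive share was 40.6% of cKO NK cells as deposited and 17.8% with the correction removed, against 21.5% of fl/fl NK cells. Klra4 had 49.5% and 35.6% against 35.5%, and Klra8 had 43.6% and 36.6% against 30.8%. Klra3 had 30.7% and 24.8% against 21.5%, and Klra9 35.6% and 28.7% against 30.8%.

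Within each library Klra8 was more frequent among Klra4-positive than among Klra4-negative cells. It was positive in 32 of 50 Klra4-positive cKO cells and 12 of 51 Klra4-negative ones, and in 16 of 38 and 17 of 69 fl/fl cells. Both encode activating receptors. Klra1 was likewise positive in 27 of 54 Klra7-positive cKO cells and 14 of 47 Klra7-negative ones, and in 18 of 56 and 5 of 51 fl/fl cells. Both pairs were picked after their values were seen and have no test. The longest coding transcripts of Klra4 and Klra8 share no stretch of 50 bases, nor do those of Klra1 and Klra7. Other members do share sequence: 33.1% of such stretches of Klra8 recur in another gene (20.4% in the pseudogene Klra14-ps), 32.4% of Klra9, 21.5% of Klra3 and 14.7% of Klra7. For Klrc1 the share was 40.3%, nearly all of it with Klrc2, and for Klrb1b 29.0%. Values of these genes are uncertain where reads could be split between copies.

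Gzma and Prf1 were positive in most NK cells and in a smaller share of CD3 cells. Gzma was positive in 73.3% of cKO and 59.8% of fl/fl NK cells, against 1.25% and 3.43% of CD3 cells, with a median height of 3.93 (quartiles 0.83 and 8.79) and 2.40 (0 and 7.10) in NK cells. Prf1 was positive in 61.4% of cKO and 51.4% of fl/fl NK cells and in 15.5% and 13.5% of CD3 cells. Gzmb was less of a dividing line, at 39.6% of cKO and 30.8% of fl/fl NK cells and 20.7% and 20.6% of CD3 cells. Ccl5, a chemokine, was positive in 77.2% of cKO and 66.4% of fl/fl NK cells and in 28.0% and 28.3% of CD3 cells. Xcl1, the chemokine that attracts Xcr1-bearing dendritic cells, was positive in 27.7% of cKO and 24.3% of fl/fl NK cells.

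The spread of Gzma within the NK cells was wide, and splitting them at 1 above its zero level gave cells with different companions. The split was made after the values were seen, and the cut is a point in a range. In the cKO library 10 cells lay between 0.5 and 1 and 2 between 1 and 1.5, and in the fl/fl library 3 and 6 did. The cKO values of the split are as deposited, and none is given with the correction removed. Gzma-positive cells were 74 of 101 cKO and 64 of 107 fl/fl NK cells. In the fl/fl library they had a median of 112.5 genes above zero, against 154 in Gzma-negative cells.

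Granule and Klr receptor genes were more often on the Gzma-positive side. Of 9 granule genes other than Gzma, 7 were higher and 1 lower by at least 0.2 in Gzma-positive cKO cells, and 5 were higher and 2 lower in fl/fl cells, beside 18.8% and 17.4% of all 559 genes higher. Of 15 Klr genes, 10 were higher and 4 lower in cKO cells, and 12 were higher and 2 lower in fl/fl cells. Prf1 was positive in 56 of 74 Gzma-positive and 6 of 27 Gzma-negative cKO cells, and in 45 of 64 and 10 of 43 fl/fl cells. Gzmb was positive in 38 of 74 and 2 of 27 cKO cells, and in 30 of 64 and 3 of 43 fl/fl cells. Klrg1, a receptor of mature NK cells, was positive in 23 of 74 and 3 of 27 cKO cells, and in 17 of 64 and 2 of 43 fl/fl cells. The same side held more cells with Irf8, a transcription factor, at 50 of 74 and 2 of 27 cKO cells and 34 of 64 and 4 of 43 fl/fl cells. Eomes was positive in 57 of 74 and 13 of 27 cKO cells, and in 27 of 64 and 9 of 43 fl/fl cells. The mean number of positive Ly49 genes other than Klra7 was 2.26 in Gzma-positive and 1.67 in Gzma-negative cKO cells, and 1.78 and 1.02 in fl/fl cells. Klra1, 1 of those 7 genes, went the other way, at 20 of 74 and 21 of 27 cKO cells and 12 of 64 and 11 of 43 fl/fl cells. Over all cKO NK cells its positive share was 40.6% as deposited and 17.8% with the correction removed, so these cKO counts are uncertain.

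Genes of type 1 innate lymphoid cells and tissue residence were more often on the Gzma-negative side. Of the 9 compared, 2 were higher and 5 lower by at least 0.2 in Gzma-positive cKO cells, and 1 was higher and 5 lower in fl/fl cells, beside 19.1% and 21.3% of all genes lower. Itga2, the integrin chain CD49b of NK cells, went with the Gzma-positive side, at 18 of 74 and 2 of 27 cKO cells and 21 of 64 and 8 of 43 fl/fl cells. Itga1, the CD49a integrin chain used to mark type 1 innate lymphoid cells, was positive in 9 of 74 Gzma-positive and 10 of 27 Gzma-negative cKO cells, and in 4 of 64 and 14 of 43 fl/fl cells. Il7r, the interleukin-7 receptor, was positive in 6 of 74 and 9 of 27 cKO cells, and in 1 of 64 and 11 of 43 fl/fl cells. Cd7, a surface protein of T and NK cells, was positive in 24 of 74 and 23 of 27 cKO cells, and in 22 of 64 and 30 of 43 fl/fl cells. Xcl1 was positive in 12 of 74 and 16 of 27 cKO cells, and in 11 of 64 and 15 of 43 fl/fl cells. Ikzf2, which encodes the transcription factor Helios, had 4 of 74 and 19 of 27 cKO cells, and 2 of 64 and 12 of 43 fl/fl cells. Over all cKO NK cells its positive share was 22.8% as deposited and 11.9% with the correction removed, so these cKO counts are uncertain. Gzmc, another granzyme, went with this side, at 1 of 74 and 6 of 27 cKO cells and 1 of 64 and 8 of 43 fl/fl cells.

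The direction was shared by the libraries. Of the 15 genes with the highest difference in the fl/fl library, 14 were also higher in Gzma-positive cKO cells, the exception being Klrc2 at -0.20, and all 15 with the lowest difference were lower there. Over all 559 genes compared, 51.9% were higher and 48.1% lower in Gzma-positive cKO cells. If the inferred correction was made, the cKO library is not a fully separate check. Cd3 genes moved with the split. At least 1 Cd3 gene was positive in 3 of 74 Gzma-positive and 6 of 27 Gzma-negative cKO cells, and in 6 of 64 and 12 of 43 fl/fl cells. Tcrg-C4, a gamma delta T cell gene, was also more frequent on the Gzma-negative side. It was positive in 4 of 74 and 6 of 27 cKO cells and in 2 of 64 and 10 of 43 fl/fl cells. Trdc went the other way in the fl/fl library, positive in 8 of 74 and 4 of 27 cKO cells and in 17 of 64 and 6 of 43 fl/fl cells. Among cells with no positive Cd3 gene it was positive in 8 of 71 Gzma-positive and 0 of 21 Gzma-negative cKO cells and in 16 of 58 and 2 of 31 fl/fl cells. In those Cd3-free cells Itga1 was positive in 8 of 71 and 7 of 21 cKO cells and in 3 of 58 and 8 of 31 fl/fl cells, and Il7r in 4 of 71 and 8 of 21 cKO cells and in 0 of 58 and 6 of 31 fl/fl cells. Ncr1 went with the negative side in the cKO library (52 of 74 against 23 of 27) and with the positive side in the fl/fl library (50 of 64 against 26 of 43). Klrb1c was positive in 61 of 74 and 20 of 27 cKO cells and in 46 of 64 and 21 of 43 fl/fl cells. Klre1 had 63 of 74 and 17 of 27 cKO cells, and 53 of 64 and 38 of 43 fl/fl cells. Klra7 had 36 of 74 and 18 of 27 cKO cells, and 32 of 64 and 24 of 43 fl/fl cells. The median number of positive markers was 3 and 3 in cKO cells, and 3 and 2 in fl/fl cells. How the choice of cells bears on the split was not tested.

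**Figure D3:**
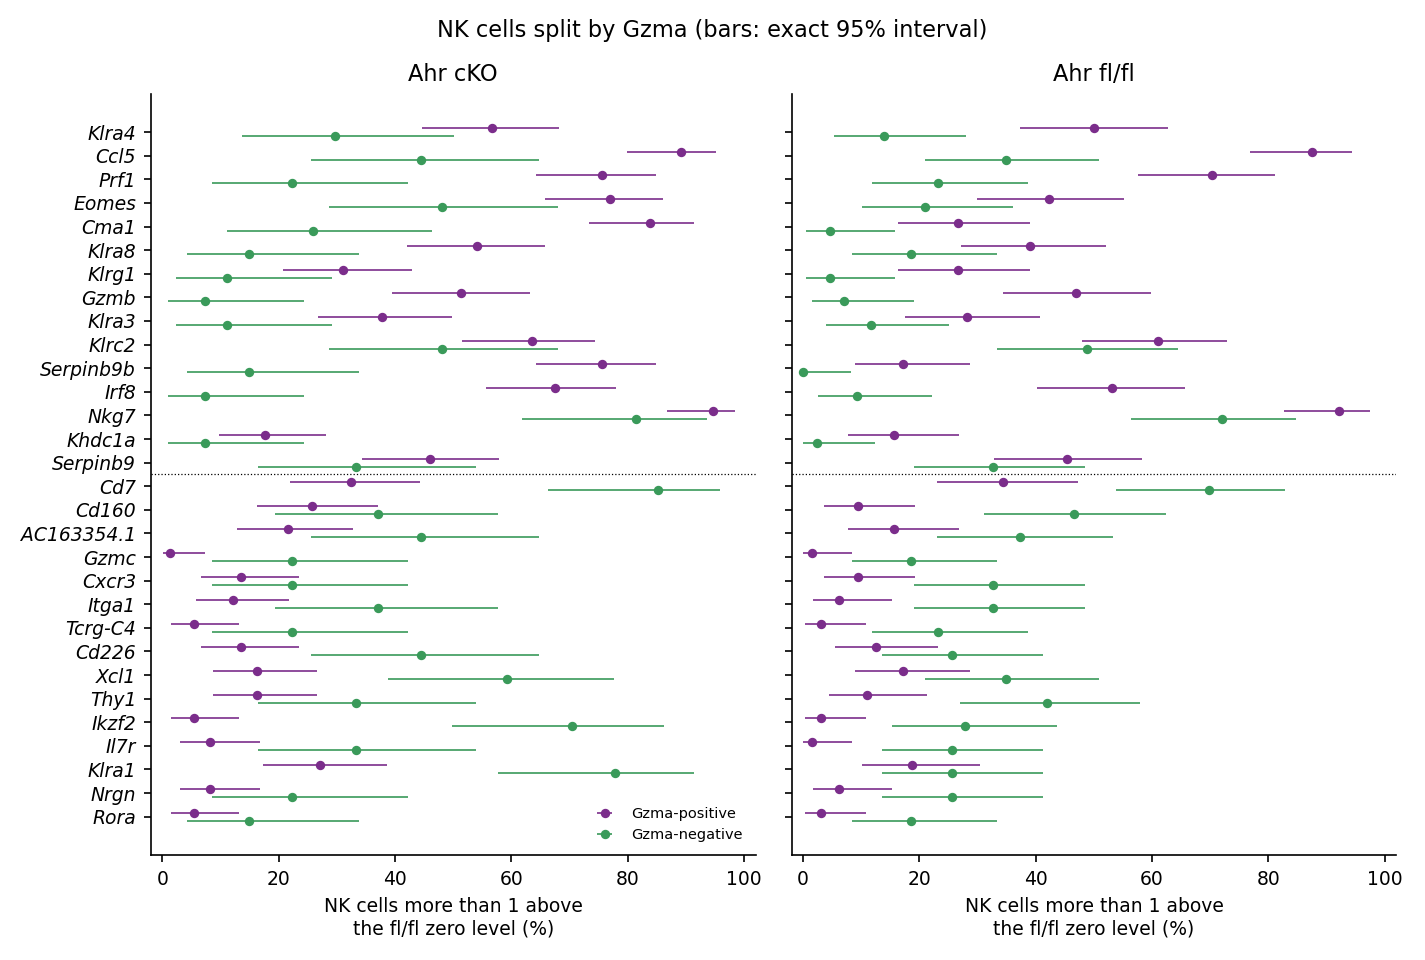
Percent of NK cells (horizontal axis) in which each gene was more than 1 above the fl/fl zero level, for Gzma-positive and Gzma-negative cells of the Ahr cKO (left) and Ahr fl/fl (right) libraries, with exact 95% intervals for counting error as bars. The cKO values are as deposited. The 15 genes above the dotted line were highest and the 15 below it lowest in Gzma-positive fl/fl cells; Prf1 was positive in 75.7% and 22.2% of cKO cells and in 70.3% and 23.3% of fl/fl cells.

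The genotypes were then set side by side over 560 genes, each above zero in 5% or more of fl/fl NK cells and none of them among the 7 genes of the rule. This filter read the fl/fl library alone, so it favours genes that are higher there. As deposited, 58 genes (10.4%) were at least 0.2 higher and 34 (6.07%) at least 0.2 lower in cKO NK cells. The estimate with the correction removed was made for the 484 of these genes that were above zero in under 40% of fl/fl NK cells. It put 62 genes (12.8%) higher and 12 (2.48%) lower. The lists changed as much as the counts: of 42 genes higher as deposited among those 484, 16 were also higher with the correction removed and 3 were lower, and of 27 lower genes 3 were also lower and 5 were higher.

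Of the 10 highest deposited differences 5 turned with the correction removed, Klrb1b held and 4 had no estimate. The estimate subtracts the 0.3 quantile of neighbouring cKO cells, so it can also remove real signal of a gene expressed in most of them. Genes were admitted to it by their fl/fl share alone. As deposited, Cited4 was positive in 81.2%, Eomes in 69.3%, Cma1 in 68.3%, Klrb1a in 66.3% and Serpinb9b in 59.4% of cKO NK cells. How much of these 5 turns came from a loss of real signal was not tested. Cma1, a chymase gene best known from mast cells, was higher by 1.88 as deposited and had a difference of -0.50 with the correction removed. It was positive in 68.3% of cKO NK cells as deposited, in 29.7% with the correction removed and in 17.8% of fl/fl NK cells. The lower quartile of its deposited height was 0.72 in the cKO library, while the upper quartile was 0 in the fl/fl library. Of the 5 measured mast and basophil markers, Kit alone was positive in NK cells, in 10 of 101 cKO and 4 of 107 fl/fl cells, and the 95th percentile of the list's summed height was 8.18 in cKO and 0 in fl/fl NK cells. The part of these markers in the Cma1 difference was not tested. Eomes had a difference of 0.71 as deposited and of -0.26 with the correction removed. Serpinb9b, a relative of the granzyme B inhibitor gene, had 1.01 and -0.19, and Cited4, a transcriptional coactivator gene, 0.90 and -0.26. In the other direction Khdc1a had -0.78 as deposited and 0.80 with the correction removed, Myo6, a myosin gene, -0.35 and 0.60, and Cxcr3, a chemokine receptor gene, -0.59 and 0.10. For Gzma (0.98), Serpinb9 (0.92), Prf1 (0.89) and Klrd1 (0.77) the deposited difference stands alone, because they were above zero in too many fl/fl NK cells for an estimate.

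The 16 genes higher in cKO NK cells both ways were led by receptors. They were selected by their values, so their number is set beside the 42 of 484 higher as deposited and the 62 of 484 higher with the correction removed, and no more is read from it. Klrc1, the inhibitory NKG2A chain, was higher by 0.33 as deposited and by 1.39 with the correction removed. It was positive in 36.6% of cKO NK cells, in 43.6% with the correction removed and in 28.0% of fl/fl NK cells. Klrg1 was higher by 0.56 and by 1.22, and positive in 25.7%, 26.7% and 17.8% of cells in the same order. Klrb1b, an inhibitory NKR-P1 receptor, was higher by 0.96 and by 0.80, and positive in 49.5%, 45.5% and 29.0%. All 3 had the same direction in a second form of the estimate, at 1.21, 1.03 and 0.66. Klrc1 and Klrb1b share sequence with neighbouring genes, as given above, and Klrg1 lies outside that gene cluster.

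The other genes of this group had smaller differences. Serpinb6b, a serine protease inhibitor gene, was higher by 0.42 as deposited and by 0.48 with the correction removed. Cd226, an activating adhesion receptor gene, was higher by 0.57 and 0.29, and Icam1, a ligand of the LFA-1 integrin, by 0.45 and 0.30. Atp1b1, a sodium pump subunit gene, was higher by 0.65 and 0.32. Gbp4, an interferon-induced GTPase gene, was higher by 0.23 and 0.31 and was positive in 19 of 101 cKO and 10 of 107 fl/fl NK cells. Socs1, an inhibitor of cytokine signalling, was higher by 0.21 and 0.26. Ifng, the interferon-gamma gene, was higher by 0.25 and 0.29, but its positive share was 13.9% of cKO and 13.1% of fl/fl NK cells. Its deposited difference was -0.0063 when members had to pass 1.5 in place of 1. Tmem37, Fut8, Sptbn1, Wdr43, Usp10 and Rcn1 made up the rest, at 0.22 to 0.44 as deposited. Of the 16 genes, 13 were also at least 0.2 higher in the second form of the estimate, and Usp10 (0.17), Socs1 (0.15) and Rcn1 (0.039) were not.

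Among the 3 genes lower both ways, Klra1 had a difference of -0.60 as deposited and -0.43 with the correction removed. Ncapd2, a condensin gene of dividing cells, had -0.20 and -0.22. It passed the filter, which read fl/fl cells alone, with 5.61% of fl/fl NK cells above zero, so no more is read from its direction. It was positive in 0 of 101 cKO and 5 of 107 fl/fl NK cells, so its difference rests on few cells. For Klra1 the deposited share of positive cells pointed the other way, at 40.6% of cKO against 21.5% of fl/fl NK cells, and the share with the correction removed was 17.8%.

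**Figure D4:**
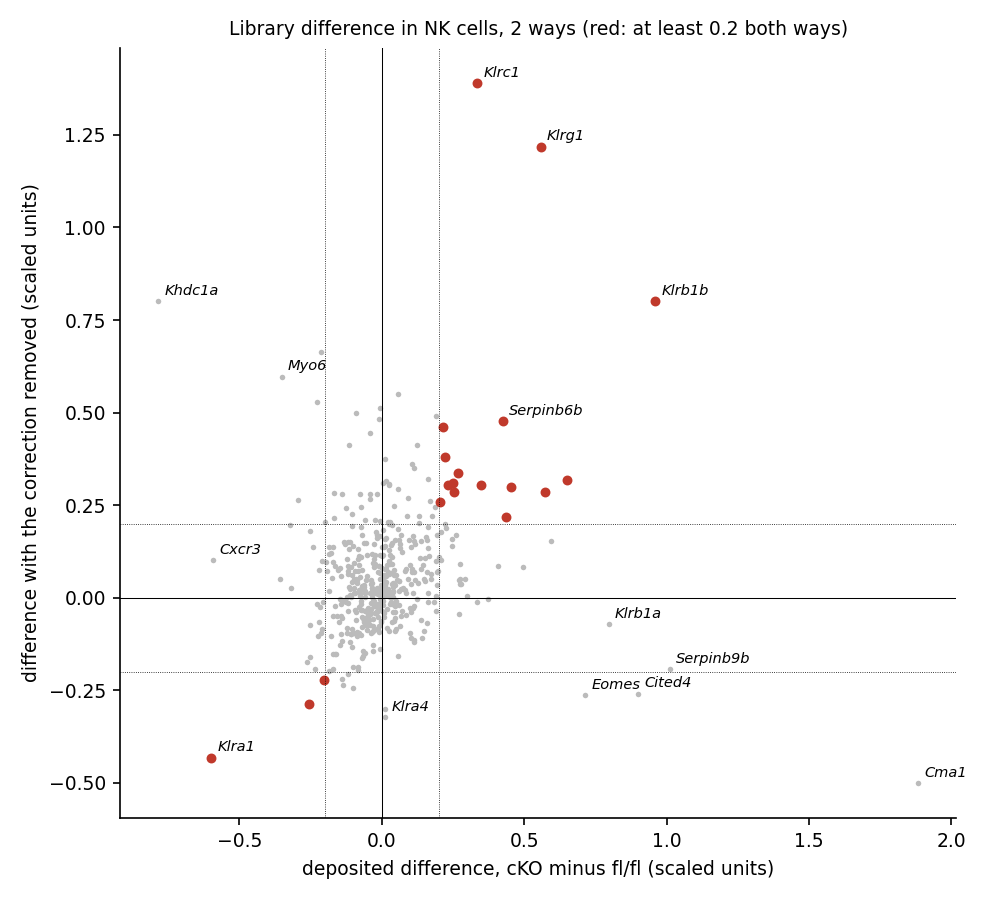
Difference of each gene between Ahr cKO and Ahr fl/fl NK cells, cKO minus fl/fl in scaled units, as deposited (horizontal axis) and with the correction removed (vertical axis), for the 484 genes with an estimate. The 16 genes at least 0.2 higher and the 3 at least 0.2 lower both ways are red, and Cma1 lies at 1.88 on the horizontal and -0.50 on the vertical axis.

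By group, the deposited differences were mostly upward in the receptor and granule genes. Over all 560 genes 10.4% were higher and 6.07% lower as deposited. With the correction removed the shares over all 484 genes were 12.8% and 2.48%. Klr genes were among those that chose the cells, and the part of this choice in the differences was not tested. Of 15 tested Klr genes, 9 were higher and 2 lower in cKO NK cells, with a median difference of 0.29 against -0.008 over all 560 genes. With the correction removed, 3 of 11 were higher and 2 lower, with a median of -0.047, against 0.17 for the same 11 genes as deposited and 0.033 over all 484 with the correction removed. Of 10 granule and death ligand genes, 6 were higher and 1 lower as deposited, with a median of 0.32, and 1 of 4 was higher and none lower with the correction removed. The median over those same 4 was 0.070, against -0.070 as deposited. The granule gene higher both ways was Serpinb6b.

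Transcription factors, cytokines and their receptors are given next, beside 10.4% of all 560 genes higher and 6.07% lower as deposited. With the correction removed, the shares over all 484 genes were 12.8% and 2.48%. Of 10 transcription factors, 3 were higher as deposited (Eomes, Irf8 and Ikzf2) and none lower, with a median of 0.13. Of the 8 with an estimate none was higher and 2 were lower (Eomes and Nr4a2), with a median of 0.001. Of 5 cytokines and chemokines, Ifng was higher and Xcl1, at -0.29, lower as deposited, and Ifng alone of 3 was higher with the correction removed. Of 3 cytokine receptors, Il2rb (0.47) and Il18r1 (0.27), which encodes an interleukin-18 receptor chain, were higher as deposited. With the correction removed Il7r, at 0.25, was the 1 of 2 that was higher.

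Genes of migration, residence and recognition were mixed. The 8 migration and maturation genes had 4 higher as deposited (Cma1, Car2, Cxcr6 and Cx3cr1) and 3 lower (Cxcr3, Thy1 and Ccr2), and of the 6 with an estimate none was higher and 1, Cma1, was lower. The 9 genes of type 1 innate lymphoid cells and tissue residence had 2 higher (Itga2 and Cxcr6) and 1 lower (Ctla2a), with a median of 0.16. Of the 6 with an estimate 1, Il7r, was higher and none lower, with a median of 0.15. Of 5 other NK receptors and adaptors, Cd226 was higher and Crtam lower as deposited, and both were higher with the correction removed. Of 2 tested inhibitory receptors, Klrg1 was higher both ways and Lag3 differed by less than 0.2.

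Ahr itself was positive in 10 of 101 cKO and 9 of 107 fl/fl NK cells (9.90% and 8.41%), close to the 8.84% of fl/fl CD3 cells. The difference was 0.15 as deposited and 0.16 with the correction removed. The deleted exons are not given, so a transcript tag outside them checks nothing. Of 10 AHR-induced genes 2 were measured, Cyp1b1 and Scin, and both were at zero in every fl/fl NK cell. Scin was positive in 6 of 101 cKO NK cells as deposited and in 0 with the correction removed, and Cyp1b1 in 0.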

How the data were processed

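The 2 libraries, 1 per genotype with 3 tumors pooled in each, were made with 10X Genomics chemistry, per the labels' protocols. The submitters' processing notes name Cell Ranger 3.0.0 and Seurat 3.1.4 and the build mm10/GRCm38, without their roles. The authors deposited a scaled score for 2000 genes in each cell, with a maximum of 10 and a minimum of -25.91, and 2 UMAP coordinates per cell, a second score deposited without unit. Doublets were neither called nor removed here, and shares could not be thinned to equal depth because the score holds no counts.

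Members and gene lists were chosen with earlier results of these data known. The zero level of a gene was its minimum over fl/fl cells. The correction of the cKO values, inferred from the values, was removed gene by gene: the 0.3 quantile among a cell's 30 nearest cKO cells (30 principal components) was taken from its value. A second form used 50 neighbours and a quantile of 0.5 times the share of fl/fl members at zero. The code was tested on simulated data. Differences are mean cKO minus mean fl/fl values. Genes were compared if above zero in 5% or more of fl/fl members, and counted from 0.2. Named genes were the rule genes, Ahr, Lyz2, the 12 genes highest in fl/fl members, the most frequent and most different list members, the 10 highest and lowest differences, and the most frequent gene of each other cell type. The genes held both ways, the Gzma split, the Ly49 pairs, and T cell, Klr, Scin and list genes beyond these, with H2-Aa, were named after their values were seen. The scripts used scikit-learn 1.9.0, scipy 1.17.1, pandas 2.3.3, numpy 2.4.6 and matplotlib 3.10.9 in Python 3.11.15. One gene is not reported here. GENCODE vM21 names matched 1989 of 2000 genes.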

Additional observations from a re-analysis of the deposited data

Results flagged for a closer look

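Klrd1, the CD94 gene, differed in opposite directions between genotypes in NK cells and in CD3 cells. Its deposited difference, cKO minus fl/fl, was 0.77 in NK cells and -0.21 in CD3 cells, with 87.1% of cKO and 70.1% of fl/fl NK cells positive and 23.8% of cKO and 34.8% of fl/fl CD3 cells. The difference between the cell types was not tested, since there was 1 library per genotype. The part of the correction in it was not tested. The gene was above zero in too many fl/fl NK cells and fl/fl CD3 cells for an estimate.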

How the results depend on the processing

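No paired analysis was possible because each genotype had 1 library. With at least 3 of the 4 NK markers the shares were 1.53% of the cKO and 1.15% of the fl/fl library. The cKO share was 2.69% with no Cd3 exclusion, and with a local zero level in choosing members it was 1.77%, below the fl/fl share. The fl/fl share was 1.67% when members had to lie among members in the embedding, an alternative added after seeing the data. Lower genes numbered 12 with the correction removed and 22 in its second form. From a difference of 0.1, 124 genes were higher and 122 lower. Without barcodes present in both libraries, 57 genes were higher and 31 lower.

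Of 24 named genes with a deposited difference of at least 0.2 and an estimate, 14 changed sign with the correction removed, 7 moved and 3 stayed within 0.1. The signs turned, in the first and second form, for Cma1 (-0.50 and -0.33), Serpinb9b (-0.19 and -0.30), Cited4 (-0.26 and -0.38), Klrb1a (-0.071 and -0.14), Eomes (-0.26 and -0.25), Itga2 (-0.011 and -0.10), Khdc1a (0.80 and 0.54), Myo6 (0.60 and 0.27), Kit (0.65 and 0.42), Crtam (0.53 and 0.45), Thy1 (0.20 and 0.16) and Cxcr3 (0.10 and 0.048). In the first form only, they turned for Nrgn (0.025) and Gzmc (0.051). The Klr list's median became -0.047 and -0.11 over 11 of its 15 genes, which had 0.17 as deposited. The granule list's median was -0.068 in the second form over the 4 of 10 genes with an estimate, and -0.070 for these as deposited, so this turn comes from the genes left out. With at least 3 markers the signs turned for Eomes (-0.84), Gzmb (-0.013), Gzmc (0.051), Kit (0.0041) and Gspt1 (0.015). Ifng was -0.0063 with markers above 1.5, and with a local zero level Ifng was -0.096 and Klre1 0.13. The causes were not tested beyond the construction of each alternative. Removing the correction can also remove real signal of genes expressed in most cKO NK cells, as given above. Depth per cell is unknown and limits every share.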

Other observations

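Genes of division, interferon response and handling stress varied from rare to frequent. At least 2 of the 18 cell cycle genes were positive in 13 of 101 cKO and 17 of 107 fl/fl NK cells. H2afz, a histone variant gene of that list, was positive in 39.6% of cKO and 37.4% of fl/fl NK cells, against 15.2% of cKO and 24.7% of fl/fl CD3 cells. Hmgb2, a chromatin protein gene, was positive in 9.90% of cKO and 15.9% of fl/fl NK cells. Top2a, a topoisomerase of dividing cells, was positive in 3.96% of cKO and 7.48% of fl/fl NK cells, against 13.4% of fl/fl CD3 cells. None of the 11 tested cell cycle genes differed by 0.2 between the genotypes, as deposited or, for 8, with the correction removed. At least 2 of 14 measured interferon-induced genes were positive in 11 cKO and 8 fl/fl NK cells, and Gbp4 alone of 6 tested was at least 0.2 higher in cKO cells both ways. At least 2 of 9 measured dissociation and stress genes were positive in 5 cKO and 11 fl/fl NK cells, and none of 7 tested differed by 0.2.

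Itgax, the integrin chain better known from dendritic cells, was positive in 1.56% of cKO and 1.26% of fl/fl CD3 cells, well below its share of NK cells. Ccr2, a chemokine receptor gene of monocytes, was positive in 2.66% of cKO and 4.33% of fl/fl CD3 cells.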
